A study of Mus musculus with 9 samples.

Results

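Astrocyte markers are described here across 9 two-colour oligonucleotide arrays of mouse hippocampus. The 10 genes are Gfap, Aqp4, Slc1a2, Slc1a3, Aldh1l1, S100b, Gja1, Glul, Sparcl1 and Clu, and every probe annotated to them was taken whatever its values. All 10 had a probe, of 16637 genes with one, and this gave 12 of the 29922 probes on the array, with 2 each for Gfap and Slc1a2 and 1 for every other gene. The mice were 3xTG at 3 months and at 12 months, and wild type (WT) at 12 months and at 3 months (129SV with C57BL6). All were female, with 2 mice in each of the 4 groups and RNA from 1 hippocampus of each mouse. By its label the 3xTG strain carries mutant APP and tau transgenes, and its genetic background is named differently from that of WT. The labels used here do not name the promoter that drives the transgenes.

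Each array set RNA of 1 mouse against RNA of another, and 3 arrays were made for each of 3 comparisons: WT at 12 over 3 months, 3xTG over WT at 3 months, and 3xTG over WT at 12 months. WT mice recur across comparisons, so the comparisons share samples and the 3 arrays of a comparison are not 3 separate pairs of mice. Per the design text, 3 of the 9 arrays were technical replicates and 6 biological ones. The values are log2 ratios, read as the first-named group over the second. No ratio between -0.5 and 0.5 was listed, so a missing value is either a small ratio or a spot left out for another reason. Each array listed 45.7 to 54.1% of its probes. Array medians ran from -1.71 to 2.34, and every value below is therefore given relative to the median of its array unless another scale is named. A centred value above 0 then says that a probe lay above the middle of that array's listed probes, and gives no absolute level of the transcript. Unlisted ratios of -0.5 to 0.5 would lie, on arrays 1 to 3, at -1.9 to -0.9, -2.8 to -1.8 and -2.5 to -1.5 in WT at 12 over 3 months. For 3xTG over WT they would lie at -1.3 to -0.3, 0.3 to 1.3 and -1.5 to -0.5 at 3 months. At 12 months they would lie at 0.4 to 1.4, 0.4 to 1.4 and 1.2 to 2.2. A side of 0 is therefore not by itself a rise or a fall. All 3 arrays of WT at 12 over 3 months have V numbers of 57 to 65 in their raw file names, while the genotype comparisons also hold numbers of 86 to 91, and a term for that number is among the alternative fits.

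Astrocytes are the glial cells that clear glutamate from synapses, return it to neurons as glutamine, buffer potassium and water at their end-feet on blood vessels, and pass small molecules to one another through gap junctions. In injury and in amyloid pathology they can become reactive, a state classically recognised by more of the intermediate filament protein GFAP. The hippocampus, a region needed for memory, holds many astrocytes and is affected early in mouse models of Alzheimer's disease.

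The astrocyte probes did not all lie on 1 side of the array median in any comparison. Of 108 possible values, 61 were listed (56.5%, against 48.6% over all probes). In WT at 12 over 3 months 9 of the 12 probes had a value, 3 with a mean above and 6 with a mean below the array median. The median of these 9 means was -0.59, with array medians of 0.32, -1.08 and -0.80 (SD 0.74, n = 3 arrays). In 3xTG over WT at 3 months 9 of 12 probe means were above 0, with a median of 0.59 and array medians of 0.042, 0.22 and 0.96 (SD 0.49, n = 3 arrays). In 3xTG over WT at 12 months 10 of 12 were above 0, with a median of 1.87 and array medians of 1.79, 1.89 and 2.06 (SD 0.14, n = 3 arrays). The array medians rest on 6, 6 and 7 listed probes in WT ageing, 7, 5 and 9 at 3 months, and 5, 8 and 8 at 12 months. Those probes differ between arrays and the arrays share mice, so these SDs do not give the spread of single probes. Pooled over the astrocyte probes, the SD at 12 months was 2.78. Over all probes the medians were 0.048, -0.077 and 0.021.

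That position at 12 months was shared with transcripts that are not astrocytic. A set of 177 probes for abundant transcripts (ribosomal proteins, respiratory chain, proteasome and glycolysis) had medians of -0.57 in WT at 12 over 3 months, 0.47 in 3xTG over WT at 3 months and 1.87 at 12 months. Relative to those transcripts the astrocyte medians were 0.050, 0.35 and 0.065, and on the deposited scale with no centring they were 1.31, 1.53 and 0.65. The sign of the ageing median therefore turned with the centring, and the size of the 12-month median depended on it. Another 848 probes, for gene families taken as unexpressed, were read on the deposited scale. On arrays 1 to 3 their medians were 1.61, 2.84 and 2.13 in WT ageing and -0.53, -1.11 and 0.66 at 3 months. At 12 months they were -1.49, -1.42 and -2.08. They lay above the array median on each WT ageing array and below it on each genotype array. The abundant transcripts lay on the opposite side of that median on each array except array 1 at 3 months. Whether abundance or spot brightness takes part in the 12-month value was not tested. In RNA of whole hippocampus, a change in the number of astrocytes and a change in RNA per astrocyte cannot be told apart.

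**Figure D1:**
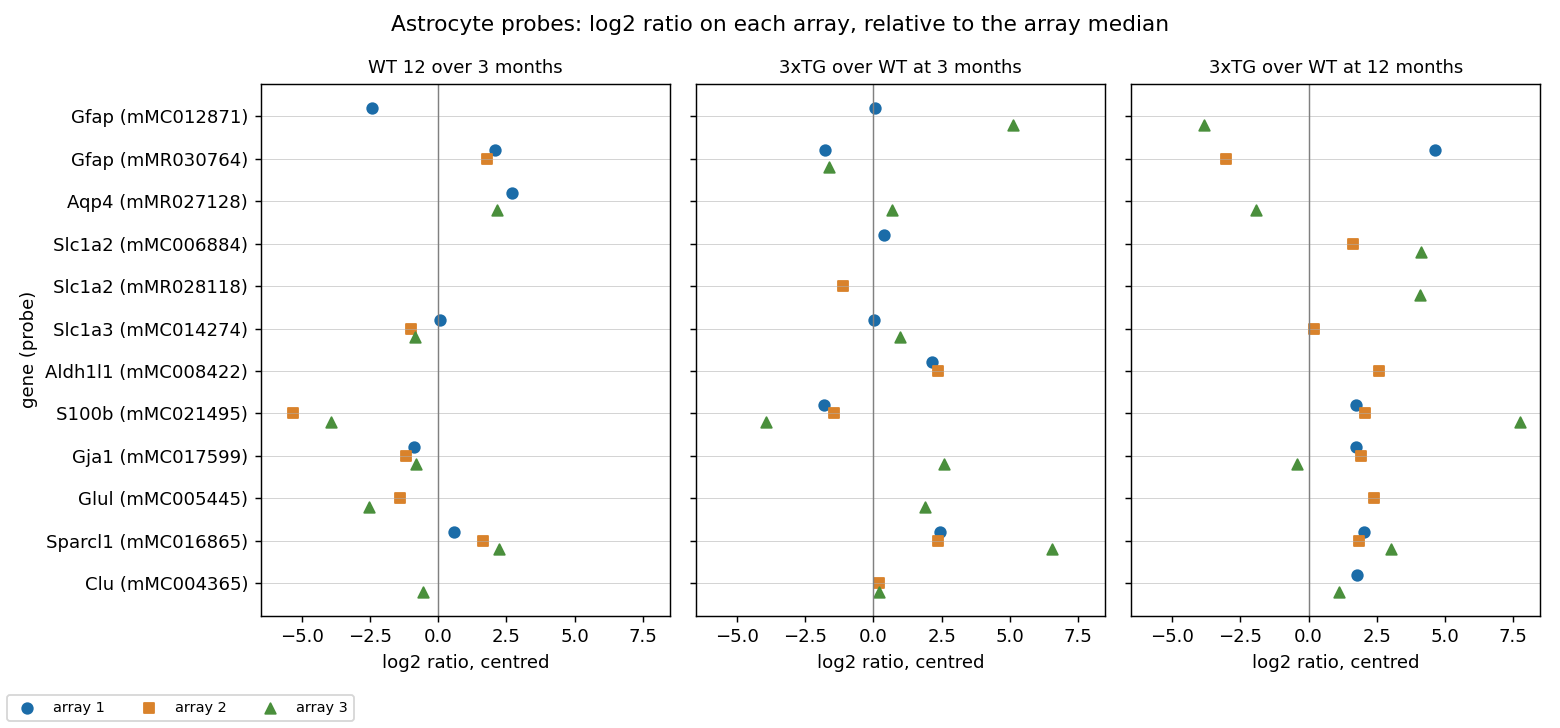
Centred log2 ratio (x axis) of each of the 12 astrocyte probes (y axis) on each array, with 1 panel per comparison and 1 marker per array; a probe without a marker was not listed on that array. Sparcl1 lay above 0 on all 9 arrays and S100b changed side between the genotype comparisons, and with centring on abundant transcripts Sparcl1 on arrays 1 and 2 and S100b on arrays 1 and 2 of the 12-month comparison lay slightly below 0.

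Gfap (chr11:102887336-102897200, GRCm38.p6 as for the genes that follow) encodes the glial fibrillary acidic protein, the intermediate filament of astrocytes, and its 2 probes lay on opposite sides of 0 in WT ageing and in genotype at 3 months. Probe mMR030764 stood at 2.07 and 1.79 on arrays 1 and 2 of WT at 12 over 3 months and was not listed on array 3. Probe mMC012871 was listed on array 1 alone there, at -2.44. So on the same array, with the same mice, one Gfap probe lay above and the other below the median.

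The disagreement held for genotype at 3 months. Probe mMR030764 read -1.79 and -1.62 on arrays 1 and 3 of 3xTG over WT at 3 months, while mMC012871 read 0.042 and 5.10 on those arrays. For 3xTG over WT at 12 months, mMR030764 had 4.65 on array 1 and -3.02 on array 2. These are arrays of the same 3xTG mouse, labelled with the same dye, against different WT mice and with V numbers of 66 and 90. The source of the gap between these 2 spots was not tested. On array 3 mMC012871 stood at -3.84. The sequences of the probes were not used here, and which Gfap transcripts each detects is not known from these files. No direction for Gfap can be read from the pair, and the mean of mMR030764 at 12 months, 0.81 ± 5.42 (SD, n = 2 arrays), also changed sign with the centring.

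Aqp4 (chr18:15389394-15410982), the water channel of astrocyte end-feet, was listed on 4 of 9 arrays. Both WT ageing arrays that listed it had high values, 2.71 on array 1 and 2.16 on array 3. Arrays 1 and 3 held the same 12-month mouse, so these values rest on 1 aged animal. On the deposited scale these were 4.13 and 4.12. Genotype gave single values, 0.70 at 3 months on array 3 and -1.93 at 12 months, also on array 3. The value at 3 months was -0.074 relative to the abundant transcripts, so its sign depends on the centring, while the ageing mean of 2.44 ± 0.39 (SD, n = 2 arrays) and the 12-month value kept their sign under the 3 centrings.

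Gja1 (chr10:56377300-56390419) encodes the main gap-junction connexin of astrocytes. Its values were -0.87, -1.17 and -0.80 in WT at 12 over 3 months, a mean of -0.95 ± 0.20 (SD, n = 3 arrays). Being below 0 on all 3 arrays of that comparison was common: of 4083 probes listed on all 3, 22.2% did the same, and 16.4% lay above 0 on all 3. Without centring the 3 values were 0.54, 1.16 and 1.16, so the sign depended on the centring. In 3xTG over WT, Gja1 was listed once at 3 months, at 2.57 on array 3, and at 12 months it read 1.74, 1.94 and -0.43. The 2 arrays of the same 3xTG mouse lay together, and the array of the other 3xTG mouse, with the dyes exchanged, lay apart from them. The mean of 1.08 ± 1.31 (SD, n = 3 arrays) was within its spread and turned negative under the other centrings.

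Slc1a2 (chr2:102658239-102790784) and Slc1a3 (chr15:8634124-8710807) encode the glutamate transporters GLT-1 and GLAST, which take up most synaptic glutamate. Slc1a2 was not listed by either probe on any array of WT at 12 over 3 months. For 3xTG over WT at 12 months probe mMC006884 stood at 1.62 on array 2 and 4.13 on array 3, and probe mMR028118 at 4.08 on array 3. On array 3, the array on which both were listed, the probes differed by little, in contrast to Gfap. At 3 months each probe had a single value on a different array, 0.39 for mMC006884 on array 1 and -1.11 for mMR028118 on array 2.

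Slc1a3 had the least variable ratios on the deposited scale in WT at 12 over 3 months among astrocyte probes listed on all 3 of its arrays, at 1.50, 1.35 and 1.10 (mean 1.31 ± 0.20, SD, n = 3 arrays). After centring the same arrays read 0.080, -0.99 and -0.86, because their medians were themselves above 0. The gene thus lay near the middle of the arrays, and its side of 0 depended on the scale. Genotype values were 0.0070 and 0.96 on arrays 1 and 3 at 3 months and 0.19 on array 2 at 12 months, the last turning to -1.88 relative to the abundant transcripts.

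Glul (chr1:153899929-153909723) encodes glutamine synthetase, which turns the glutamate taken up into glutamine. It read -1.42 and -2.55 on arrays 2 and 3 of WT at 12 over 3 months, which shared the 3-month mouse. Their mean of -1.98 ± 0.80 (SD, n = 2 arrays) became 0.16 without centring. In 3xTG over WT it was listed once per age, at 1.89 on array 3 at 3 months and 2.39 on array 2 at 12 months. Both single values stayed above 0 under all 3 centrings. Aldh1l1 (chr6:90550768-90599171), a folate-metabolism enzyme used as a pan-astrocyte marker, was not listed in WT ageing. Its 3 genotype values were 2.14 and 2.38 on arrays 1 and 2 at 3 months and 2.57 on array 2 at 12 months. Each was above 0 on every scale, with a mean of 2.26 ± 0.17 (SD, n = 2 arrays) at 3 months, or 1.52 relative to the abundant transcripts. The 2 arrays at 3 months shared the WT mouse and had different 3xTG mice.

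S100b (chr10:76253836-76261319) encodes a calcium-binding protein that astrocytes also secrete, and it had the widest range of the 12 probes. In WT at 12 over 3 months it read -5.32 on array 2 and -3.95 on array 3, which shared the 3-month mouse, and was not listed on array 1. In 3xTG over WT at 3 months it stood at -1.80, -1.44 and -3.94, below the median on each array, and at 12 months at 1.74, 2.07 and 7.76, above it on each. The genotype values at the 2 ages did not overlap.

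Such runs of 1 sign were not rare among all probes. Of 3607 probes listed on all 3 arrays at 3 months, 20.8% lay below 0 on all 3 and 30.9% above. Of 3836 such probes at 12 months, 29.7% lay above 0 on all 3 and 20.3% below. Among the 637 probes listed on all 6 genotype arrays, 27 (4.24%) were below on all 3 at 3 months and above on all 3 at 12 months, as S100b was. Relative to the abundant transcripts the 12-month values of S100b were -0.31, -0.013 and 6.55, so with that centring the arrays of one 3xTG mouse lay near 0 and the positive mean came from the array of the other mouse, the only one of that comparison with 3xTG in Cy5. On the deposited scale they were 0.87, 1.19 and 6.05.

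S100b, Gja1 and Glul are the genes whose every listed value in WT at 12 over 3 months lay below the array median after centring, on at least 2 arrays, and for which the RefSeq table of GRCm38.p6 holds a promoter. The table holds one for 7 of the 10 genes. The 250 bases before the start are shown for these 3, on the plus strand of chr10:76253586-76253835 for S100b, chr10:56377050-56377299 for Gja1 and chr1:153899679-153899928 for Glul. Capitals mark matches, on either strand, to the TATA box as TATAAA, the CCAAT box by its name, the GC box as GGGCGG or the STAT site as TTCNNNGAA.
S100b: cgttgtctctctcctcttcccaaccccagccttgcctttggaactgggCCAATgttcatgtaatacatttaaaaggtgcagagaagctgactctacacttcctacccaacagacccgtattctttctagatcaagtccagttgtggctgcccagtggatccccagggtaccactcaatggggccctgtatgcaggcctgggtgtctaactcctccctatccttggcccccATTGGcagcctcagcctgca
Gja1: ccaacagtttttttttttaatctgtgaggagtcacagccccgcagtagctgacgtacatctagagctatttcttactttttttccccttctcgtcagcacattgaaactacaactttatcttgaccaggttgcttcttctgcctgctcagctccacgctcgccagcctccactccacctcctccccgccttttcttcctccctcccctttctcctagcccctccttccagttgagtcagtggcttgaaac
Glul: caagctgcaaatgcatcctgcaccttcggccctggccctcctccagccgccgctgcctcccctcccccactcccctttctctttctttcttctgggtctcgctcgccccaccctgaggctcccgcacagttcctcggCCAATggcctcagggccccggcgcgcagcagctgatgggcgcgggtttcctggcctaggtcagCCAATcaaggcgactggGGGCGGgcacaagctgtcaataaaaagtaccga
S100b held 2 CCAAT matches, Glul held 2 CCAAT matches and 1 GC box, and Gja1 held no match to the 4 motifs. Over 32851 promoters in the table, 33.9% held CCAAT, 32.7% a GC box, 12.4% TATAAA and 7.02% the STAT site. GC content was 53.6% for S100b, 50% for Gja1 and 64.8% for Glul, against a median of 52.4%. A match is only a run of letters, and the 3 stretches shared no motif of the 4.

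Sparcl1 (chr5:104079108-104114088) encodes hevin, a matricellular protein that astrocytes release and that promotes synapse formation, and it was the only astrocyte probe listed on all 9 arrays. Its values were 0.57, 1.65 and 2.24 in WT at 12 over 3 months. In 3xTG over WT they were 2.45, 2.37 and 6.54 at 3 months and 2.02, 1.85 and 3.01 at 12 months. All 9 lay above the array median, and all 9 were above 0 on the deposited scale too.

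Of the 142 probes listed on all 9 arrays, 14 (9.86%) were above 0 on all of them. The means of Sparcl1 were 1.49 ± 0.85 for WT ageing, 3.79 ± 2.39 for genotype at 3 months and 2.29 ± 0.63 for genotype at 12 months (SD, n = 3 arrays each). Array 3 at 3 months, at 6.54, stood far above the other two and was the only one with 3xTG in Cy5, and the fitted dye term of Sparcl1 was 0.63 ± 0.35 (SE). Relative to the abundant transcripts the 12-month values were -0.024, -0.23 and 1.80, a mean of 0.52 ± 1.12 (SD, n = 3 arrays), so its distance from those transcripts at 12 months was within the spread over arrays, while the 3-month values stayed above 0 at 2.59, 0.75 and 5.77.

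Clu (chr14:65968483-65981548), which encodes clusterin, a secreted chaperone that binds amyloid-β, had small values. It was at -0.56 on array 3 of WT ageing, at 0.22 and 0.21 on arrays 2 and 3 for genotype at 3 months, and at 1.79 and 1.11 on arrays 1 and 3 at 12 months. Its sign depended on the centring in all 3 comparisons, so no direction can be given for Clu.

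**Figure D2:**
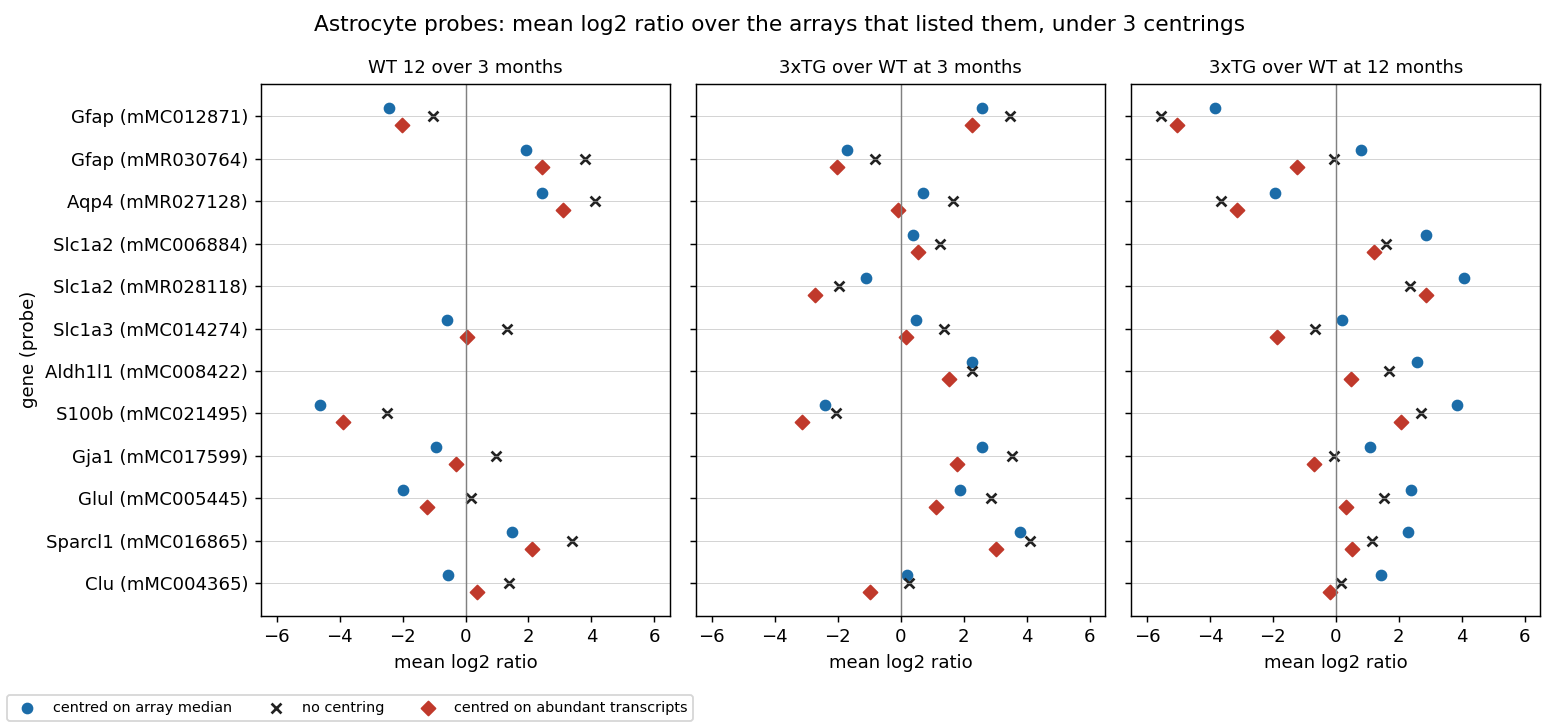
Mean log2 ratio (x axis) of each astrocyte probe (y axis) over the arrays that listed it, with 1 panel per comparison and 3 markers for the array-median centring, no centring and centring on abundant transcripts. Slc1a3, Gja1, Glul and Clu in WT ageing, Aqp4 and Clu at 3 months, and Gfap (mMR030764), Slc1a3, Gja1 and Clu at 12 months lay on both sides of 0 depending on the centring.

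The comparisons were then tested with limma across all probes, with covariance from shared mice and a dye term. A probe entered if it was listed on at least 2 of 3 arrays in each comparison, which held for 3696 probes and 3 astrocyte probes, Sparcl1, S100b and Gfap mMR030764. The other 9 could not be tested under this filter. No probe of any gene passed an adjusted p threshold of 0.05 (Benjamini-Hochberg). Calls were 0 of 3644, or 0%, in each of the hybridised comparisons, 0% for the difference between the genotype effects at 12 and 3 months, and 0% for 3xTG at 12 over 3 months through the WT mice. An unadjusted p under 0.05 was reached by 11.7% of probes in WT ageing, 13.4% for genotype at 3 months, 16.6% for genotype at 12 months, 6.87% for the difference of genotype effects and 5.6% for 3xTG ageing. The astrocyte probes under that unadjusted limit numbered 0, 1, 2, 1 and 0 of 3 in the same order.

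Sparcl1 had the smallest p of the 3 for genotype at 3 months, with a fitted log2 ratio of 4.29 ± 0.99 (SE, limma adjusted p = 0.245). Its fitted ratio at 12 months was 2.47 ± 0.98 (SE, limma adjusted p = 0.270) and in WT ageing 1.35 ± 0.99 (SE, limma adjusted p = 0.702). The genotype ratios at the 2 ages differed by -1.82 ± 1.39 (12 minus 3 months, SE, limma adjusted p = 0.840), so no change of the genotype difference with age was detected for Sparcl1.

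S100b had fitted ratios of 4.38 ± 1.54 for genotype at 12 months (SE, limma adjusted p = 0.260) and -2.42 ± 1.54 at 3 months (SE, limma adjusted p = 0.541). The difference between them, 12 minus 3 months, was 6.80 ± 2.17 (SE, limma adjusted p = 0.721). In WT ageing the fit gave -2.69 ± 2.18 (SE, limma adjusted p = 0.756), closer to 0 than the mean of the 2 listed arrays, since the fit carries shared mice and dye across comparisons. For Gfap mMR030764 the fitted ratios were 1.93 ± 2.25, -1.70 ± 2.25 and -0.10 ± 2.86 (SE) for WT ageing and genotype at 3 and 12 months, each within its error of 0. No change in S100b or Gfap passed the test. Single arrays moved the fit of S100b. Without array 3 at 3 months its fitted 3-month ratio was 1.22 and the difference 3.52, although arrays 1 and 2 there read -1.80 and -1.44. Both of those arrays had 3xTG in Cy3, so that fit leaned on the dye term and the shared mice. Without array 3 at 12 months its fitted 12-month ratio was 0.70 and the difference 3.52. Arrays 1 and 2 there, also with 3xTG in Cy3, read 1.74 and 2.07.

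**Figure D3:**
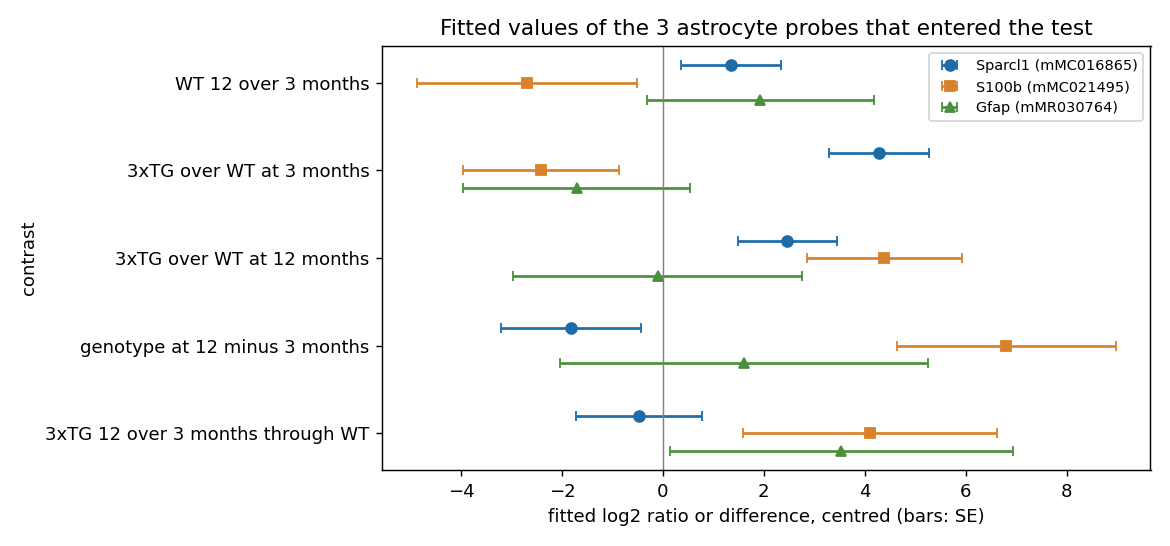
Fitted centred log2 ratio or difference (x axis; bars are the SE) of the 3 astrocyte probes that entered the limma test, for the 3 hybridised comparisons and the 2 derived contrasts (y axis). Sparcl1 stood at 4.29 for genotype at 3 months and S100b at 6.80 for the difference of genotype effects, and no value passed the adjusted threshold; the fitted sign of Gfap in the difference of genotype effects turned with no centring and with centring on abundant transcripts.

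Other genes of astrocytes also lay above the median for genotype at 12 months. Of 22 further genes enriched in astrocytes, 21 had probes, 23 in all. Their median was 0.25 in WT ageing, 1.00 for genotype at 3 months and 2.20 at 12 months, where 20 of 21 probes with a value lay above 0 and the array medians were 2.34, 2.15 and 2.38. Of all probes with a value at 12 months, 13018 of 25767 lay above 0, and of the abundant transcripts 123 of 159. Relative to the abundant transcripts the 12-month median of these astrocyte genes was 0.43, and 1.13 without centring. Of the 9 genes tested, 0 passed, and 3, 2 and 5 had an unadjusted limma p under 0.05 in the 3 comparisons. Over all probes tested the shares were 11.7, 13.4 and 16.6%.

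Cpe, which encodes carboxypeptidase E, stood at 2.58, 3.08 and 4.40 on the 12-month arrays (fitted 3.64 ± 0.95, SE, limma adjusted p = 0.260). Apoe, the apolipoprotein E that astrocytes secrete to carry lipid, stood at 4.32, 2.37 and 2.48 there (fitted 2.72 ± 0.92, SE, limma adjusted p = 0.260). Gpr37l1, an orphan receptor of astrocytes, was above 0 on each genotype array, at 1.47, 2.69 and 2.98 at 3 months and 2.74, 2.15 and 2.38 at 12 months. Its fitted ratios were 2.32 and 2.35, with limma adjusted p of 0.281 and 0.260. Of all probes listed on all 3 arrays, 30.9% at 3 months and 29.7% at 12 months lay above 0 on all 3. Relative to the abundant transcripts the fitted 12-month ratios were smaller, at 1.99 for Cpe, 1.03 for Apoe and 0.63 for Gpr37l1. Cst3, the secreted protease inhibitor cystatin C, read 0.21, 1.65 and 3.37 at 3 months.

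In WT ageing 10 of the 22 probes with a value lay below 0, and 5 of the 9 tested genes had a fitted ratio below 0, Mfge8, Dio2 and Apoe (-2.01 ± 1.31, SE) among them. Mfge8, a secreted bridging protein for phagocytosis, read -2.17, -3.75 and -2.82 in WT at 12 over 3 months and -2.40, -0.69 and -1.84 in 3xTG over WT at 3 months. Dio2, the deiodinase that makes active thyroid hormone, read -2.02, -3.29 and -5.94 in WT at 12 over 3 months. Their fitted ageing ratios were -2.86 and -3.20 (limma adjusted p = 0.293 and 0.294), and both stayed below 0 under the 3 centrings. Sox9, a transcription factor of astrocytes, read 0.92, 0.35 and 1.00 in that comparison.

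Genes of reactive astrocytes did not share the 12-month position. Their list had probes for 32 of 34 genes, 41 in all, with medians of -0.52 in WT ageing, 0.56 for genotype at 3 months and -0.60 for genotype at 12 months, where 20 of 33 probes lay below 0. The 12-month array medians were -0.024, 0.012 and -1.12 (SD 0.65, n = 3 arrays). Arrays 1 and 2 thus lay near 0, and only array 3 lay clearly below it. The 12-month median stayed below 0 under the other centrings, at -1.75 with none and -2.30 relative to the abundant transcripts. Over all probes the 12-month medians on those scales were -1.14 and -1.75, so a value below 0 there does not set this list apart. The medians of WT ageing (1.67 and 0.12) and of genotype at 3 months (1.09 and -0.070) did not keep 1 sign. Of 6 genes tested, 0 passed and 0 had an unadjusted p under 0.05 in any of the 3 comparisons, and no tested gene of this list had one sign on all 3 arrays of a comparison. The difference between this list and the astrocyte markers was not tested.

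The glutamate and glutamine cycle, with 14 of 16 genes on the array, had medians of -0.66, 0.094 and 1.17 in the same order. On the deposited scale they were 0.76, 0.40 and 0.30, and with the abundant transcripts set to 0 they were -0.24, -0.86 and -0.89, so no sign held under the 3 centrings. Glud1, glutamate dehydrogenase, stood at 3.07, 2.15 and 2.38 at 12 months (fitted 2.21 ± 1.18, SE, limma adjusted p = 0.382). Relative to the abundant transcripts that fitted ratio was 0.49. The end-foot complex and connexins, with 14 of 17 genes, had medians of -0.13, -0.27 and 0.085, of which those of WT ageing and of 12 months turned sign with no centring (1.78 and -1.29). Tjp1, a junction scaffold that also binds the Gja1 connexin, read 0.83, 1.92 and 2.67 at 3 months (fitted 1.88 ± 0.80, SE, limma adjusted p = 0.369). Gja4, a connexin of blood vessels, read -0.67, -0.38 and -3.24 in WT ageing. Of the 3 genes tested in each list, 0 passed.

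Markers of some other cell types were also above the median at 12 months. At 12 months the medians were 1.48 for neurons, 1.01 for oligodendrocytes, 0.99 for microglia, -0.41 for endothelium and 0.31 for choroid plexus, and in WT ageing they were -0.74, -1.05, 0.11, -2.41 and -0.42. At 3 months they were 0.66, 0.061, 0.56, -0.093 and 1.11. Neuron and oligodendrocyte medians thus lay on the same side as the astrocyte markers in all 3 comparisons after centring on the array median. Relative to the abundant transcripts the neuron medians were -0.067, -0.091 and -0.54 and the oligodendrocyte medians -0.36, -0.51 and -0.77, all below 0. The astrocyte medians of 0.050, 0.35 and 0.065 were above 0, but in WT ageing and at 12 months only by little. Being above 0 on that scale was not particular to them: microglia stood at 0.86 in WT ageing, and choroid plexus at 0.14 in WT ageing and 0.17 at 3 months. Without centring the 12-month medians were 0.19 for neurons, -0.69 for oligodendrocytes, -0.41 for microglia, -1.28 for endothelium and -0.98 for choroid plexus. Relative to the abundant transcripts, the 12-month medians were -0.22 for microglia, -2.45 for endothelium and -1.33 for choroid plexus. The 12-month medians of these lists other than endothelium thus turned sign with the centring.

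Single markers did not speak for their lists. Snap25, a synaptic vesicle fusion protein, read 1.47, 1.06 and 1.71 in WT ageing, but the other 2 neuron genes tested there had fitted ratios below 0, both with an unadjusted p under 0.05. One of them was Thy1, a neuronal surface protein, at -2.53 ± 0.83 (SE, limma adjusted p = 0.297). For genotype at 12 months Thy1 read 1.84, 2.10 and 2.57. Its fitted ratio there was 2.27, or 0.60 relative to the abundant transcripts.

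Mbp, myelin basic protein, read 3.26, 2.53 and 3.41 for genotype at 12 months (fitted 3.03 ± 0.78, SE, limma adjusted p = 0.260), while 6 oligodendrocyte probes lay above and 5 below 0 in that comparison. The fitted 12-month ratio of Mbp was 1.28 relative to the abundant transcripts. Ttr, the transthyretin made by choroid plexus, read -3.57, -3.49 and -3.73 there. Pecam1, an endothelial adhesion molecule, read 0.29, 0.24 and 2.80 in WT ageing, where 6 of 8 endothelial probes lay below 0, and had a fitted ratio of -3.02 ± 1.33 for genotype at 12 months (SE, limma adjusted p = 0.313). Of the genes tested in these 5 lists, 0 passed in any comparison. The part of cell composition in the astrocyte values was not tested.

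**Figure D4:**
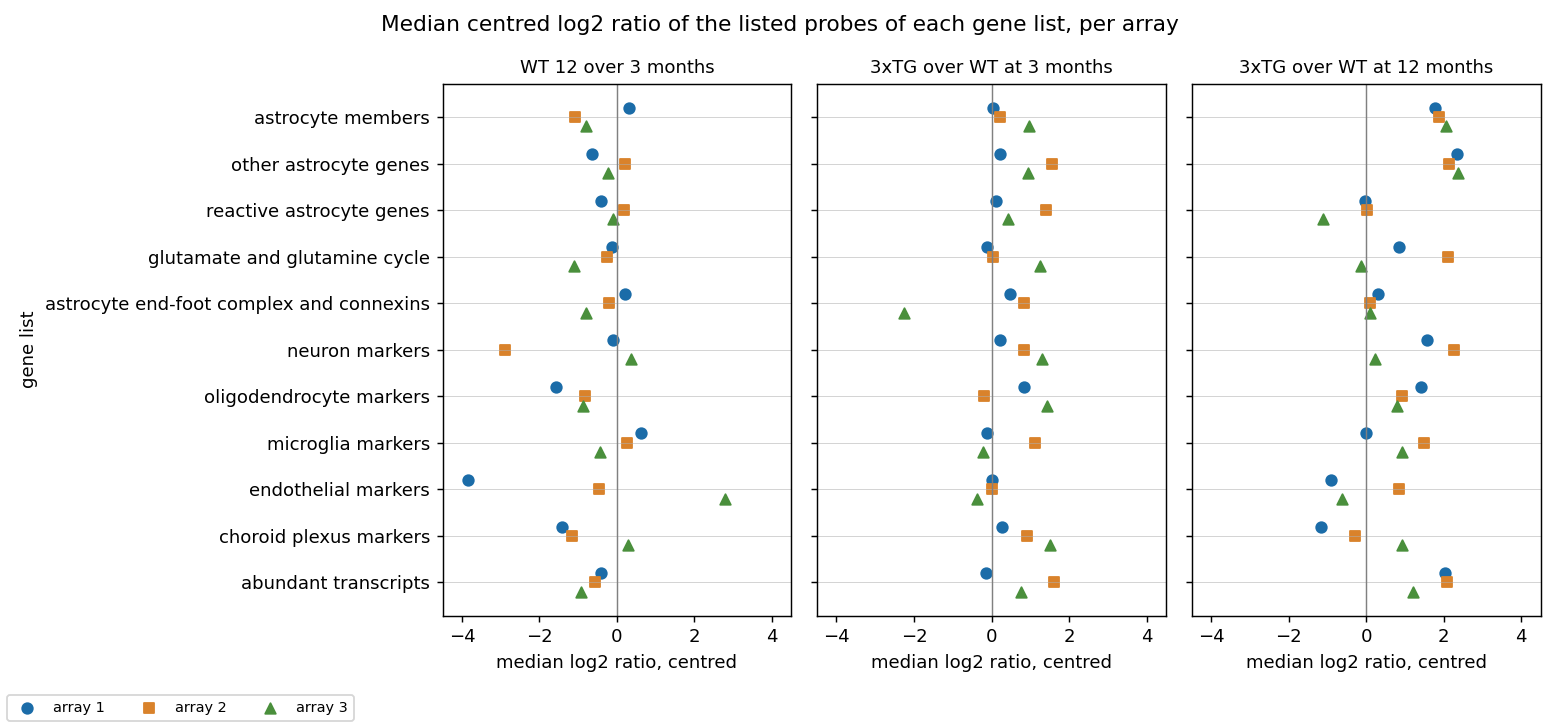
Median centred log2 ratio (x axis) of the listed probes of each gene list (y axis) on each array, with 1 panel per comparison and 1 marker per array. At 12 months the astrocyte markers (1.79, 1.89 and 2.06) lay near the other astrocyte genes and the abundant transcripts, and the reactive genes at -0.024, 0.012 and -1.12; with centring on the abundant transcripts the astrocyte median was 0.065.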

How the data were processed

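The values are the deposited log2 ratios of 29922 probes on 9 arrays. Per the labels' protocols, RNA was linearly amplified and labelled with Cy5 or Cy3. How the spots were scanned, filtered and normalized is not given in the sources, nor is signal over background. Scale and direction (first-named group over second) were read from the values and labels and are not stated. Arrays of opposite dye in a comparison correlated at 0.197 to 0.308 across probes. Between comparisons, arrays of opposite dye correlated at -0.133 to 0.215 and arrays of the same dye at -0.160 to 0.241, so the ranges overlap in part. The number of arrays limits the precision.

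Probe symbols were updated through RefSeq (GRCm38.p6): of 16675 symbols, 13905 were current, 2728 were updated through a synonym and 42 kept as annotated; 21020 probes had 1 symbol, 0 several and 8902 none. Each array was centred on its median. Means and SDs run over arrays, which may share mice. Python 3.11.15 with pandas 2.3.3 and R 4.3.3 with limma 3.58.1 were used. The fit was generalised least squares over all 9 arrays with a coefficient per comparison, a dye term and a between-mouse to between-array variance ratio of 1.02 from restricted maximum likelihood on 142 complete probes, followed by eBayes and Benjamini-Hochberg adjustment. The fit was checked on simulated data. Arrays are technical in part, so p-values measure the spread between these arrays and mice.

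All probes of the 10 genes are described. From each other list, up to 3 genes of smallest p with one sign on all 3 arrays of a comparison are named, and some of these are given in 1 comparison only. The members and lists were chosen with earlier results of these data known. Alternatives covered centring, missing values, covariance, dye term, filter, V number, ratio direction, arrays left out and a replicate block. A part of the 3xTG strain's label is not reported here.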

Additional observations from a re-analysis of the deposited data

Results flagged for a closer look

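Genotype effects of S100b at 12 and at 3 months had opposite signs on every array, 1.74, 2.07 and 7.76 at 12 months against -1.80, -1.44 and -3.94 at 3 months. The fitted difference was 6.80 ± 2.17 (SE, limma adjusted p = 0.721), so it did not pass the correction, and centring on the abundant transcripts placed 2 of the 12-month arrays slightly below 0.

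Dio2, one of the other astrocyte genes, showed the same sign pattern, at 2.10, 2.15 and 2.36 at 12 months against -1.53, -1.08 and -1.68 at 3 months. The difference of the array means was 3.63, and the fitted difference was 3.95 ± 1.46 (SE, limma adjusted p = 0.721), which did not pass. For Dio2 it was 2.19 with no centring and 2.76 relative to the abundant transcripts, where the fitted 12-month ratio was 0.77 in place of 2.49. Over 18 alternative fits the difference for S100b ran from 2.68 to 7.42, and it was 3.52 without array 3 at 3 months or without array 3 at 12 months. Both genes belong to the 27 of 637 probes (4.24%) with this pattern of signs.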

How the results depend on the processing

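Calls by limma were 0 in all 5 contrasts under every setting run but one: with arrays taken as independent, a fit that disregards shared mice, 66 probes were called in WT ageing and 56 for genotype at 3 months. No astrocyte probe was among the calls, and the smallest adjusted p were 0.0526 for Sparcl1 at 3 months and 0.0811 for S100b at 12 months, both in that fit. After the mean of each comparison was subtracted, same-numbered arrays correlated at -0.0798 to 0.236 over 142 probes, and arrays of different number at -0.181 to 0.148. These ranges overlap in part and do not settle whether the replicate numbers pair the arrays. The fit with the replicate block gave 0 calls in each contrast. Leaving out each array in turn gave 0 to 0 calls.

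The median of the astrocyte probes in WT ageing was 1.31 with no centring and 0.37 with ratios read as Cy5 over Cy3, and ran from -0.74 to -0.56 with an array left out. At 3 months it was 1.53 with no centring and 0.042 to 0.96 with an array left out, the lowest without array 3. At 12 months it was 0.65 with no centring, 0.065 with centring on abundant transcripts, 1.46 with missing values set to 0, -0.58 with ratios read as Cy5 over Cy3 and 2.29 over probes listed on all 3 arrays, and ran from 1.75 to 2.52 with an array left out. Of 33 probe means, 7 changed sign with no centring, 8 with centring on abundant transcripts and 1 with missing values set to 0; of 48 values with an array left out, 1 did. Beyond centring, the cause of these shifts was not tested. Over 18 alternative fits the ratio of Sparcl1 at 3 months ran from 1.83 to 4.87. That of S100b ran from -5.84 to 7.85 in WT ageing, from -3.47 to 1.22 at 3 months and from 0.70 to 4.91 at 12 months. The sign of the fitted S100b ratio in WT ageing and at 3 months is therefore not settled, while its listed values in both comparisons lay below 0. Missing small ratios and 2 mice per group limit every value.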

Other observations

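The arrays offer 2 routes to the ratio of WT mouse 24 over mouse 25, through the 3xTG arrays and through the ageing arrays, all with the same dye. For Sparcl1 the routes gave -0.17 and -0.59, for Gja1 0.19 and -0.38, and for S100b 0.33 and -1.37. Over 2172 probes the 2 routes were hardly correlated (r = 0.058) and differed by a median of 1.84 log2 units. That was larger than the median absolute size of the route through the 3xTG arrays, 1.04, or through the ageing arrays, 1.31. For WT mouse 16 over mouse 15, where dyes differ within each route, Sparcl1 gave -4.17 and -1.67. Over 1871 probes these routes differed by a median of 2.03, with r = -0.047 and median absolute sizes of 1.53 and 1.36. The SDs over arrays of the astrocyte probes, pooled, were 0.64 for WT ageing, 1.72 for genotype at 3 months and 2.78 at 12 months.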
